A study of Mus musculus with 16 samples.

Results

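Genes that hair cells of the inner ear use to bind or respond to calcium, or to move, were followed in cultured mouse organs of Corti: Pvalb, Ocm, Calb1, Calb2, S100a1 and Slc26a5. They were chosen by name, as the 6 rows with these symbols among the 21220 genes of the deposited normalized count table. RNA was sequenced from 16 libraries of C57BL/6 mice in 4 groups of 4 libraries each. The groups were heterozygous cultures with FK228, heterozygous cultures with solvent, wild-type cultures with FK228 and wild-type cultures with solvent. Heterozygous mice carried 1 Rest allele without exon 4, written Rest(+/deltaExon4), and wild-type mice carried none. Organs of Corti were taken at postnatal day 0 and cultured for 3.5 days. FK228 was given at 2 nM, and its solvent was 0.1% DMSO, each from day 1 to 1.5 and again from day 3 to 3.5 in vitro. Each library pooled RNA from 6 to 8 cultures. Nothing in the labels ties a pool to a litter of its own, so the p-values measure the spread between pools, which may be partly technical.

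The organ of Corti is the sensory epithelium of the cochlea, with inner hair cells that signal to spiral ganglion neurons and outer hair cells that amplify sound. Hair cells admit calcium through transduction channels at the bundle and voltage-gated channels at the synapse, and EF-hand proteins bind it and shape its spread. Pvalb (parvalbumin), Ocm (oncomodulin, the beta-parvalbumin of outer hair cells), Calb1 (calbindin) and Calb2 (calretinin) are such buffers. S100a1 is an EF-hand calcium sensor found in supporting cells as well as hair cells. Slc26a5 encodes prestin, the membrane motor protein with which outer hair cells change length. Pvalb and Calb2 are also made by spiral ganglion neurons. REST is a repressor of neuronal genes that works in part through histone deacetylases, and FK228 (romidepsin) inhibits class I histone deacetylases. The comparisons ask how the genes differ between the genotypes, and how they respond to the inhibitor.

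The libraries held 12361027 to 14153838 gene counts in heterozygous cultures with FK228, 14627922 to 15674930 in heterozygous cultures with solvent, 16224586 to 17656274 in wild type with FK228 and 17462876 to 23611571 in wild type with solvent. All 22 genes of a general hair cell list and all 17 of a supporting cell list passed the filter on low counts. Rest itself had 75.8 to 87.3 CPM in heterozygous cultures with FK228, 78.1 to 94.8 in heterozygous cultures with solvent, 69.9 to 79.9 in wild type with FK228 and 75.2 to 86.4 in wild type with solvent. These values cover the whole gene and so do not check the loss of exon 4. Reads that fell outside genes made up 10.4% of reads in heterozygous solvent library 4, 12.9% in heterozygous solvent library 5 and 10.8% in wild-type solvent library 1, and 16.2% to 20.8% in the other libraries.

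Levels are given in CPM, counts scaled to the library total and corrected by TMM factors, and between genes in CPM per kb of exon. S100a1 was the most abundant of the 6 per kb, with group means of 281 ± 10.3 CPM per kb (SD, n = 4) in heterozygous cultures with FK228, 400 ± 46.5 in heterozygous cultures with solvent, 266 ± 10.1 in wild type with FK228 and 328 ± 50.4 in wild type with solvent. Calb1 and Calb2 followed, with group means of 84.6 to 109 CPM per kb for Calb1 and 70.6 to 131 for Calb2. The parvalbumins were lower, with group means of 12.0 to 28.7 CPM per kb for Ocm and 5.94 to 13.5 for Pvalb. Prestin was scarce, with group means of 0.253 to 1.05 CPM per kb and 9 to 109 reads per library. All 6 genes passed the filter on low counts, so each was tested among 17125 genes.

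**Figure D1:**
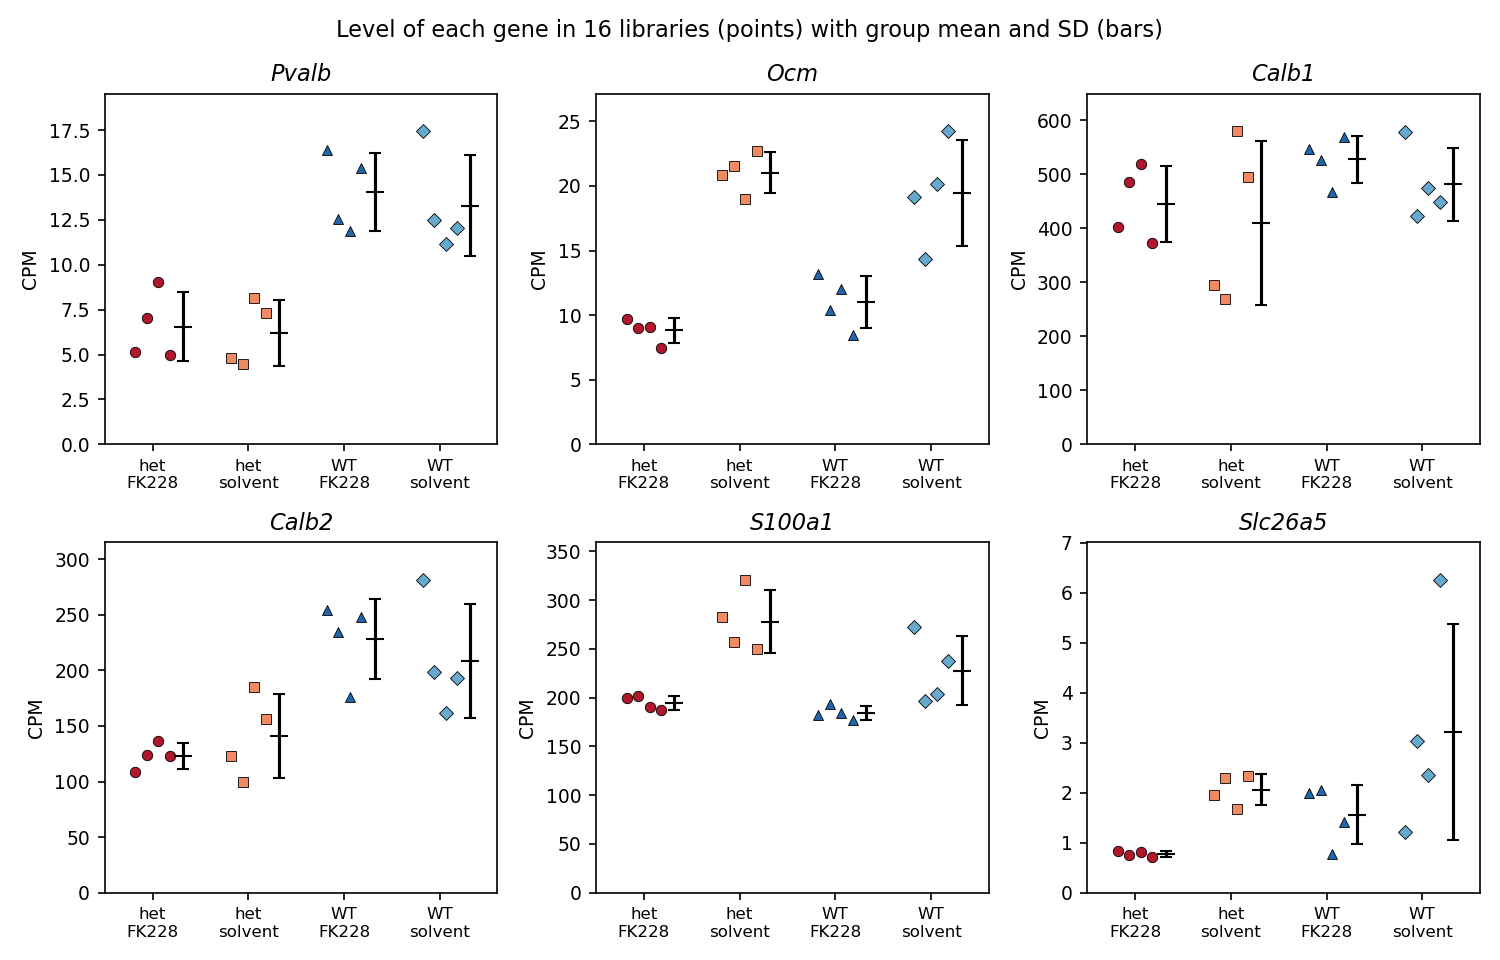
Level of each of the 6 genes in CPM (vertical axis, starting at 0) in the 16 libraries (points), grouped on the horizontal axis by genotype and treatment, with the mean and SD of each group (n = 4). Pvalb separated by genotype, with all heterozygous libraries at or below 9.05 CPM and all wild-type libraries at or above 11.2 CPM, while Ocm and S100a1 separated by treatment within each genotype.

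Between genotypes, Pvalb was the gene that differed with and without FK228, at less than the wild-type level in every heterozygous library. In solvent it had 4.82, 4.45, 8.15 and 7.33 CPM in heterozygous libraries, against 17.4, 12.5, 11.2 and 12.1 CPM in wild-type libraries. The groups did not overlap. With FK228 it had 5.14, 7.03, 9.05 and 4.96 CPM in heterozygous libraries, against 16.4, 12.6, 11.9 and 15.4 CPM in wild-type libraries, again without overlap. The fitted difference was 2.15-fold in solvent, a log2 fold change of -1.10 ± 0.22 (SE; 95% interval -1.57 to -0.64; edgeR quasi-likelihood test with Benjamini-Hochberg adjustment over all genes, adjusted p = 0.00994). With FK228 it was 2.14-fold, a log2 fold change of -1.10 ± 0.22 (edgeR, adjusted p = 0.0118). Group means were 6.55 ± 1.92 CPM in heterozygous cultures with FK228, 6.19 ± 1.83 in heterozygous cultures with solvent, 14.1 ± 2.18 in wild type with FK228 and 13.3 ± 2.82 in wild type with solvent (SD, n = 4 each). In that order of levels the wild-type groups lay above the heterozygous ones, and within each genotype the treatments did not differ beyond their spread.

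Calb2, the calretinin gene of inner hair cells and spiral ganglion neurons, was the second gene that was lower in heterozygous cultures, and it passed the test with FK228. There it had 108, 124, 137 and 123 CPM in heterozygous libraries, against 254, 235, 176 and 248 CPM in wild-type libraries. Every heterozygous library lay below every wild-type library, and the fitted difference was 1.85-fold (log2 fold change -0.89 ± 0.18; 95% interval -1.26 to -0.52; edgeR, adjusted p = 0.0103). In solvent it had 123, 99.3, 185 and 156 CPM in heterozygous libraries, against 282, 198, 161 and 193 CPM in wild-type libraries. These groups overlapped, because heterozygous library 4 lay above wild-type library 3. The log2 fold change in solvent was -0.57 ± 0.18 and missed the threshold (95% interval -0.93 to -0.20; edgeR, adjusted p = 0.135). Leaving out 1 solvent library at a time gave values between -0.39, without wild-type library 1 (edgeR, adjusted p = 0.343), and -0.72, without heterozygous library 4 (adjusted p = 0.0381), which alone of these 8 fits passed. Group means were 123 ± 11.7 CPM in heterozygous cultures with FK228, 141 ± 37.5 in heterozygous cultures with solvent, 228 ± 35.9 in wild type with FK228 and 209 ± 51.3 in wild type with solvent (SD, n = 4 each). Wild type with FK228 was the highest and heterozygous with FK228 the lowest, and each neighbouring pair in the order of levels overlapped.

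The other members did not pass the test between genotypes. Calb1 had log2 fold changes of -0.23 ± 0.19 in solvent (95% interval -0.63 to 0.16; edgeR, adjusted p = 0.752) and -0.25 ± 0.19 with FK228 (95% interval -0.64 to 0.15; adjusted p = 0.663). Ocm had 0.11 ± 0.15 in solvent (95% interval -0.21 to 0.43; edgeR, adjusted p = 0.887) and -0.32 ± 0.16 with FK228 (95% interval -0.66 to 0.02; adjusted p = 0.421). S100a1 had 0.29 ± 0.09 in solvent (95% interval 0.09 to 0.48; edgeR, adjusted p = 0.171) and 0.08 ± 0.09 with FK228 (adjusted p = 0.823). Leaving out 1 solvent library at a time gave S100a1 values between 0.21, without heterozygous library 4 (edgeR, adjusted p = 0.374), and 0.38, without wild-type library 1 (adjusted p = 0.0321), and the other 7 of these 8 fits did not pass. Prestin had -0.63 ± 0.38 in solvent (95% interval -1.43 to 0.17; edgeR, adjusted p = 0.613) and -1.0 ± 0.44 with FK228 (95% interval -1.93 to -0.07; adjusted p = 0.339). Its value in solvent rested on wild-type solvent library 4, without which it was -0.08 (edgeR, adjusted p = 0.982). With the level of Y-linked genes as a term it was -0.12 (edgeR, adjusted p = 0.974). These are not separate checks, because the same library had 0 CPM of Y-linked genes. Wild-type FK228 library 2 also had 0 CPM of them, and the other libraries had 82.1 to 257 CPM.

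In all, 1 of the 6 genes was called lower in heterozygous cultures in solvent, where 0.823% of all genes tested were called lower. With FK228, 2 of 6 were called lower, where 0.928% of all genes were. None of the 6 was called higher by edgeR, DESeq2 or limma voom, where edgeR called 1.20% of all genes higher in solvent and 1.21% with FK228. At an unadjusted p under 0.05, edgeR had 1 member higher in solvent, S100a1, and 0 with FK228. The median log2 fold change of the 6 was -0.40 in solvent and -0.61 with FK228, beside a median of -0.01 and 0.00 over all genes tested. Groups did not overlap for 1 of 6 genes in solvent, against 6.23% of all genes, and for 2 of 6 with FK228, against 8.84%.

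Marker lists of the cells that carry Pvalb and Calb2 were compared between the genotypes as well. Of 8 inner hair cell genes tested, 3 were called lower in heterozygous cultures in solvent and 3 with FK228. The summed level of the list was 65.1 to 82.6 CPM in heterozygous against 118 to 145 CPM in wild-type solvent libraries. In it Fgf8 was at 0 in the heterozygous solvent libraries, but it averaged only 0.438 CPM in the wild-type ones. With FK228 that sum was 66.9 to 74.4 CPM for the heterozygous libraries against 100.4 to 115 CPM for wild type. Otof made up 41.2% of this sum over all libraries. It averaged 28.5 CPM in heterozygous against 67.2 CPM in wild-type solvent libraries, and 16.04 against 45.1 CPM with FK228. Shtn1, the next largest gene, averaged 28.5 against 30.01 CPM in solvent and 31.5 CPM in both genotypes with FK228. Of the 8 genes, 8 had log2 fold changes below 0 in solvent and 5 with FK228. Of 17 spiral ganglion neuron genes without Calb2, 6 were called lower in solvent, with sums of 414 to 561 CPM for the heterozygous libraries against 575 to 893 CPM for wild type. With FK228, 3 of the 17 were called lower, and the sums overlapped, at 622 to 772 CPM for the heterozygous libraries against 730.3 to 1104 CPM for wild type. Of these 17 genes, 15 had log2 fold changes below 0 in solvent and 11 with FK228. Of the 22 general hair cell genes, 3 were called lower in solvent and 2 with FK228. That list also holds Otof, so it is not separate from the inner hair cell list. Muscle genes, of a tissue that also makes parvalbumin, had sums that overlapped between the genotypes, at 24.7 to 31.8 CPM for the heterozygous libraries against 29.4 to 33.8 CPM for wild type in solvent. With FK228 the muscle sums overlapped too, at 33.6 to 50.3 CPM for the heterozygous libraries against 37.4 to 44.1 CPM for wild type. The part of these cells in the difference of Pvalb and Calb2 was not tested. In such bulk samples, fewer cells of a type and less RNA per cell cannot be told apart.

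Pvalb lies on the minus strand at chr15:78191114-78206400 and Calb2 on the minus strand at chr8:110137502-110168210 (GRCm38, GENCODE M21), and no other annotated gene overlapped either one. Because REST binds a DNA element with parts that read CAGCACC and GGACAGC, the 250 bases before RefSeq starts were searched for these letters on both strands. The strings share the letters CAGC and can overlap. RefSeq windows (GRCm38.p6) matched 4 of the 6 genes by symbol, which were Pvalb, Ocm, S100a1 and Slc26a5. The RefSeq start was that of the GENCODE gene for Pvalb and Slc26a5. For S100a1 it lay 62 bases downstream of the GENCODE start, so that window reaches into the annotated gene, and for Ocm it lay 23939 bases upstream, so the window at the GENCODE start of Ocm was not searched. CAGCACC stood in 5.73% of all 32851 windows, GGACAGC in 5.28% and both in 0.393%. The window at the 5′ end of Pvalb, chr15:78206401-78206650, is shown since Pvalb separated the genotypes, and that of S100a1, chr3:90514331-90514580, since it also held both strings. Both read 5′ to 3′ on the minus strand, with the matches in capitals.
Pvalb: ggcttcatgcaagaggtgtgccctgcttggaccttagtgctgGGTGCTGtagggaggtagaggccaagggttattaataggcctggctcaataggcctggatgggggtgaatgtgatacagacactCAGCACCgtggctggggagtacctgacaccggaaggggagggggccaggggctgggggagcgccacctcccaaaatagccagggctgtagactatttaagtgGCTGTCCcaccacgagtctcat
S100a1: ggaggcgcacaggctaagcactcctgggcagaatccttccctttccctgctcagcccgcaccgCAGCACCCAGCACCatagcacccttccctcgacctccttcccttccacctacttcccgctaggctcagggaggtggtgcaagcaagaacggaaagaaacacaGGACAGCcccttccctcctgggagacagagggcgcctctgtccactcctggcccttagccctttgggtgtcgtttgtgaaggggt
In the Pvalb window CAGCACC began 124 bases before the RefSeq start on the gene's strand and 208 bases before it on the other, and GGACAGC began 22 bases before it on the other strand. In the S100a1 window CAGCACC began 187 and 180 bases before the RefSeq start and GGACAGC 85 bases before it, all on the gene's strand. No match lay in the windows of Slc26a5 and of the upstream Ocm start, nor in a second Pvalb window further downstream. The search set no condition on the distance between the strings, so a window with both need not hold the element. On a shared strand, CAGCACC and GGACAGC began 208 and 22 bases before the RefSeq start in the Pvalb window. In the S100a1 window the nearest such pair began 180 and 85 bases before it. A match is a description of these letters, and binding was not measured here.

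With FK228, the genes that changed were Ocm, S100a1 and Slc26a5, and all of them fell in both genotypes. Ocm, the outer hair cell parvalbumin, had 9.68, 9.03, 9.05 and 7.48 CPM in heterozygous FK228 libraries, against 20.8, 21.5, 19.0 and 22.7 CPM in heterozygous solvent libraries. Wild-type libraries had 13.2, 10.4, 12.0 and 8.49 CPM with FK228, against 19.1, 14.3, 20.1 and 24.2 CPM with solvent. The groups overlapped in neither genotype. The fitted fall was 2.38-fold in heterozygous cultures (log2 fold change -1.25 ± 0.16; 95% interval -1.59 to -0.92; edgeR, adjusted p = 4.03e-06). The wild-type fall was 1.76-fold (log2 fold change -0.82 ± 0.15; 95% interval -1.14 to -0.49; edgeR, adjusted p = 0.000265). Group means were 8.81 ± 0.939 CPM in heterozygous cultures with FK228, 21.0 ± 1.57 in heterozygous cultures with solvent, 11.02 ± 2.03 in wild type with FK228 and 19.5 ± 4.09 in wild type with solvent (SD, n = 4 each). The solvent groups lay above the FK228 groups, with overlap between genotypes within each treatment.

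S100a1, the calcium sensor, fell by less than Ocm. It had 200.0, 202, 190.3 and 187 CPM in heterozygous FK228 libraries, against 283, 257, 321 and 249.7 CPM in heterozygous solvent libraries. Wild-type libraries had 182, 194, 185 and 177 CPM with FK228, against 273, 197, 204 and 238 CPM with solvent. No solvent library of either genotype reached down to the FK228 libraries of that genotype. The fitted fall was 1.42-fold in heterozygous cultures (log2 fold change -0.51 ± 0.10; 95% interval -0.71 to -0.31; edgeR, adjusted p = 0.000226). The wild-type fall was 1.24-fold (log2 fold change -0.31 ± 0.09; 95% interval -0.50 to -0.11; edgeR, adjusted p = 0.0125). Without wild-type solvent library 1 the wild-type value was -0.21 (edgeR, adjusted p = 0.0575). Group means were 195 ± 7.18 CPM in heterozygous cultures with FK228, 278 ± 32.3 in heterozygous cultures with solvent, 184 ± 7.0 in wild type with FK228 and 228 ± 35.0 in wild type with solvent (SD, n = 4 each). Heterozygous with solvent was the highest, followed by wild type with solvent, heterozygous with FK228 and wild type with FK228, and each neighbouring pair in that order overlapped.

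Slc26a5, the prestin gene, rested on few reads. It had 0.832, 0.758, 0.811 and 0.708 CPM in heterozygous FK228 libraries, from 9 to 12 reads, against 1.96, 2.29, 1.68 and 2.33 CPM in heterozygous solvent libraries, from 25 to 35 reads. In wild type it had 1.99, 2.05, 0.785 and 1.42 CPM with FK228, from 13 to 35 reads, against 1.22, 3.03, 2.36 and 6.26 CPM with solvent, from 27 to 109 reads. The heterozygous groups did not overlap, and the wild-type groups did. In heterozygous cultures it fell 2.64-fold (log2 fold change -1.40 ± 0.44; 95% interval -2.32 to -0.48; edgeR, adjusted p = 0.0131). In wild type it fell 2.04-fold (log2 fold change -1.03 ± 0.39; 95% interval -1.84 to -0.22; edgeR, adjusted p = 0.0345). The wild-type call was lost without FK228 library 4 (-0.81, adjusted p = 0.107), FK228 library 7 (adjusted p = 0.0760), solvent library 2 (adjusted p = 0.0514) or solvent library 4 (-0.49, adjusted p = 0.261), and in a fit of the 2 wild-type groups alone (adjusted p = 0.0771), all with edgeR. Group means were 0.777 ± 0.0554 CPM in heterozygous cultures with FK228, 2.07 ± 0.304 in heterozygous cultures with solvent, 1.56 ± 0.591 in wild type with FK228 and 3.22 ± 2.16 in wild type with solvent (SD, n = 4 each). Wild type with solvent was the highest, followed by heterozygous with solvent, wild type with FK228 and heterozygous with FK228, and each neighbouring pair in that order overlapped.

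The other members did not pass the test with FK228. Calb1, the calbindin gene, had 402, 487, 519.9 and 372 CPM in heterozygous FK228 libraries, against 295, 269, 580.2 and 495 CPM in heterozygous solvent libraries. In wild type it had 548, 527, 467 and 569 CPM with FK228, against 579, 423, 474 and 449.6 CPM with solvent. Group means were 445 ± 69.5 CPM in heterozygous cultures with FK228, 409.8 ± 152 in heterozygous cultures with solvent, 528 ± 44.0 in wild type with FK228 and 481 ± 68.2 in wild type with solvent (SD, n = 4 each), and all 4 groups overlapped. Its log2 fold change was 0.12 ± 0.19 in heterozygous cultures (95% interval -0.27 to 0.51; edgeR, adjusted p = 0.627) and 0.13 ± 0.19 in wild type (95% interval -0.26 to 0.52; adjusted p = 0.585). Calb2 had -0.20 ± 0.18 in heterozygous cultures (95% interval -0.57 to 0.18; edgeR, adjusted p = 0.381) and 0.13 ± 0.17 in wild type (95% interval -0.24 to 0.50; adjusted p = 0.564). Pvalb had 0.09 ± 0.23 in heterozygous cultures (95% interval -0.40 to 0.57; edgeR, adjusted p = 0.780) and 0.08 ± 0.21 in wild type (95% interval -0.36 to 0.52; adjusted p = 0.781).

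FK228 changed a large part of the transcriptome, and the members are read against that. In heterozygous cultures 3 of the 6 genes were called lower, where 24.7% of all genes tested were called lower and 48.4% were called in either direction. In wild type 3 of 6 were called lower, where 25.3% of all genes were called lower and 49.0% in either direction. None of the 6 was called higher by edgeR, DESeq2 or limma voom, where edgeR called 23.8% of all genes higher in heterozygous cultures and 23.7% in wild type, and 0 members were higher at an unadjusted p under 0.05 with edgeR. The median log2 fold change of the 6 was -0.35 in heterozygous cultures and -0.11 in wild type, beside 0.00 and -0.01 over all genes. Groups did not overlap for 3 of 6 genes in heterozygous cultures, against 42.6% of all genes, and for 2 of 6 in wild type, against 44.7%.

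Marker lists of other cell types moved in both directions with FK228. Of 8 outer hair cell genes tested, 3 were called lower in heterozygous cultures, with sums of 164 to 190.2 CPM with FK228 and 202 to 212 CPM with solvent, and 2 in wild type, with sums of 156 to 186 CPM with FK228 and 208 to 217 CPM with solvent. All 10 macrophage genes were called lower in both genotypes. Their sum was 34.7 to 47.6 CPM with FK228 and 312 to 461 CPM with solvent in heterozygous cultures, and 54.0 to 69.7 CPM with FK228 and 447 to 545 CPM with solvent in wild type. Of 12 mesenchyme and cartilage genes, 9 were called lower in heterozygous cultures and 10 in wild type, and 1 was called higher in each. Of 9 Schwann cell genes tested, 7 were called lower in heterozygous cultures and 6 in wild type. Of 17 supporting cell genes, 7 were called lower and 1 higher in heterozygous cultures, and 6 lower and 2 higher in wild type. Of 18 spiral ganglion neuron genes, 9 were called higher and 3 lower in heterozygous cultures, and 7 higher and 5 lower in wild type. Without Calb2 the neuron genes summed to 622 to 772 CPM with FK228 and 414 to 561 CPM with solvent in heterozygous cultures, and to 730.3 to 1104 CPM with FK228 and 575 to 893 CPM with solvent in wild type. Of 8 inner hair cell genes tested, 2 were called higher and 1 lower in heterozygous cultures, and 4 lower in wild type. Genes of muscle, which also makes parvalbumin and S100a1, had 3 of 6 tested called higher in each genotype. They summed to 33.6 to 50.3 CPM with FK228 and 24.7 to 31.8 CPM with solvent in heterozygous cultures, and to 37.4 to 44.1 CPM with FK228 and 29.4 to 33.8 CPM with solvent in wild type, with Myh7 at 0 in every library. The part of these cells in the changes of Ocm, S100a1 and Slc26a5 was not tested.

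**Figure D2:**
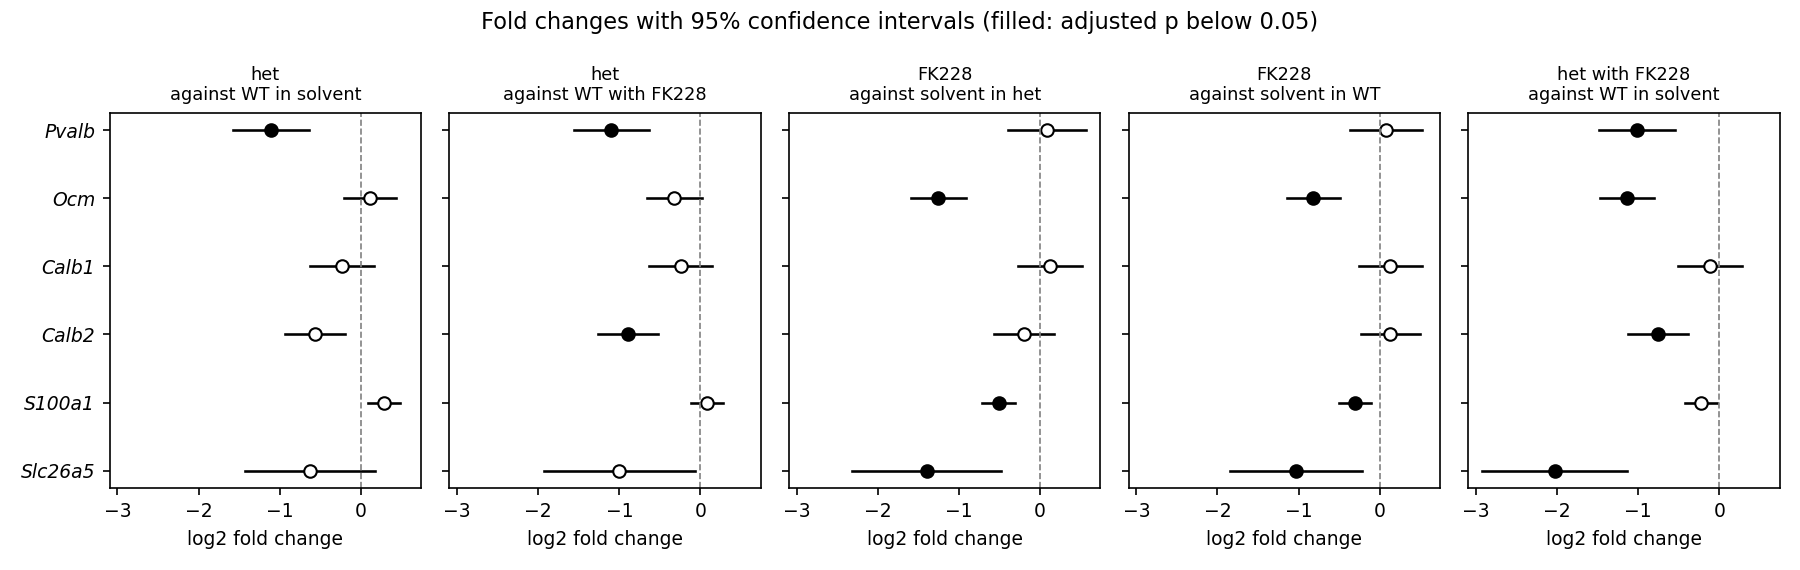
Log2 fold changes (horizontal axis) of the 6 genes (rows) in 5 comparisons (panels), with 95% confidence intervals from the edgeR fit. Filled points passed an adjusted p of 0.05; Pvalb was filled between genotypes in both treatments, and Ocm, S100a1 and Slc26a5 were filled for FK228 against solvent in both genotypes.

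Heterozygous cultures with FK228 were set against wild-type cultures with solvent, which joins the genotype and the treatment and uses libraries of the comparisons above. Slc26a5 differed most, 4.08-fold lower (log2 fold change -2.03 ± 0.43; 95% interval -2.92 to -1.13; edgeR, adjusted p = 0.000647). Ocm was 2.20-fold lower (log2 fold change -1.14 ± 0.16; edgeR, adjusted p = 1.06e-05). Pvalb was 2.03-fold lower (log2 fold change -1.02 ± 0.22; edgeR, adjusted p = 0.000887). Calb2 was 1.69-fold lower (log2 fold change -0.76 ± 0.18; edgeR, adjusted p = 0.00151). None of these 4 genes overlapped between the groups. S100a1 (-0.23 ± 0.09; edgeR, adjusted p = 0.0552) and Calb1 (-0.11 ± 0.19; adjusted p = 0.639) did not pass. S100a1 passed without heterozygous solvent library 4 (-0.23, adjusted p = 0.0372), wild-type solvent library 2 (-0.29, adjusted p = 0.0199) or wild-type solvent library 3 (-0.28, adjusted p = 0.0309), all with edgeR. Thus 4 of 6 genes were called lower, where 25.9% of all genes tested were called lower and 50.7% in either direction, and 4 of 6 did not overlap, against 45.7% of all genes. The median log2 fold change of the 6 was -0.89, beside 0.00 over all genes.

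The response to FK228 was not shown to differ between the genotypes for any member. The interaction, the response in heterozygous cultures minus that in wild type on the log2 scale, was -0.43 ± 0.22 for Ocm (95% interval -0.90 to 0.03; edgeR, unadjusted p = 0.0654 and adjusted p = 0.883). It was -0.37 ± 0.58 for Slc26a5 (95% interval -1.59 to 0.85; edgeR, adjusted p = 0.994) and -0.32 ± 0.25 for Calb2 (95% interval -0.85 to 0.20; adjusted p = 0.962). It was -0.21 ± 0.13 for S100a1 (95% interval -0.49 to 0.08; edgeR, adjusted p = 0.928), -0.01 ± 0.26 for Calb1 and 0.01 ± 0.31 for Pvalb. None of the 6 passed with edgeR, DESeq2 or limma voom, where 0.0234% of all genes did with edgeR. At an unadjusted p under 0.05, 0 members passed with edgeR and DESeq2 and 1 with limma voom.

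Spike-in RNA (ERCC) gave another scale for the same counts. With it the log2 fold change of the median gene stood at -0.18 between genotypes in solvent and -0.74 between genotypes with FK228. The median response to FK228 was -0.72 in heterozygous cultures and -0.16 in wild type, that of heterozygous with FK228 against wild type with solvent was -0.89, and that of the interaction was -0.56. The share of higher genes among those called was then 35.1%, 0.747%, 7.003%, 30.8%, 5.03% and 0.221% in that order, against 59.4%, 56.6%, 49.0%, 48.4%, 49.0% and 75.0% with TMM factors. On this scale all 6 genes were called lower in heterozygous cultures with FK228 than in wild type with FK228, and than in heterozygous cultures with solvent. S100a1 turned to -0.65 between genotypes with FK228 (edgeR, adjusted p = 0.000319), and Pvalb and Calb1 turned to -0.62 and -0.57 with FK228 in heterozygous cultures (adjusted p = 0.00932 and 0.00513). Values that were not called on either scale turned as well, which were Ocm between genotypes in solvent (-0.05), the interaction of Pvalb (-0.56), and the responses to FK228 in wild type of Pvalb (-0.06), Calb1 (-0.02) and Calb2 (-0.0034). The interaction was called for Ocm (-0.99), Calb2 (-0.90) and S100a1 (-0.78), where 4060 of the 17125 genes were called lower. Relative to the median of all genes on the same scale, Pvalb stood at -1.10 between genotypes in both treatments and Calb2 at -0.55 in solvent and -0.89 with FK228. With FK228 in heterozygous cultures Ocm then stood at -1.26, S100a1 at -0.51, Slc26a5 at -1.40, Calb1 at 0.15 and Pvalb at 0.09.

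Each gene was also set against hair cell genes, as the log2 ratio of its CPM to the summed CPM of the 22 general hair cell genes of the same library. That sum was 499 to 582 CPM in heterozygous cultures with FK228, 403 to 592 in heterozygous cultures with solvent, 607 to 668 in wild type with FK228 and 547 to 703 in wild type with solvent. Myo6, a hair cell myosin, made up 55.1% of it over all libraries. Heterozygous minus wild type, the ratio of Pvalb differed by -0.77 in solvent and by -0.89 with FK228, without overlap in either. That of Calb2 differed by -0.63 with FK228, and that of S100a1 by 0.65 in solvent and 0.33 with FK228. FK228 minus solvent, the ratio of Ocm differed by -1.46 in heterozygous cultures and -0.90 in wild type, that of S100a1 by -0.70 and -0.38, and that of Slc26a5 by -1.60 in heterozygous cultures. Each of these values had p = 0.0286 in an exact two-sided permutation test, the smallest that 4 against 4 libraries can give. After Benjamini-Hochberg adjustment over 24 ratios the permutation p was 0.0686, so none passed. A single ratio at the smallest p could not have passed this adjustment, so the lack of a call is not evidence of no difference. The ratio of Calb1 differed by 0.06 and -0.01 between genotypes, and by -0.01 in heterozygous cultures and 0.05 in wild type with FK228. Between genotypes in solvent Slc26a5 differed by less (-0.05), and so did Pvalb with FK228 in wild type (0.0049).

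The choice of denominator moved the FK228 ratios. A second denominator was the mean log2 CPM of the same 22 genes, with a small constant added to each CPM. In it Myo6 weighs no more than any other gene. Against it, Ocm differed by -0.81 in heterozygous cultures (exact permutation p = 0.0286) and -0.31 in wild type (p = 0.171). S100a1 then differed by -0.06 in heterozygous cultures (exact permutation p = 0.714) and 0.21 in wild type (p = 0.0571), where the direction turned. Of the 22 genes, 11 were called lower with FK228 in heterozygous cultures and 12 in wild type, while Myo6 averaged 342 CPM with FK228 and 234 with solvent in heterozygous cultures, and 396 and 284 CPM in wild type. The genotype ratio of Pvalb hardly moved, at -0.74 in solvent and -0.81 with FK228.

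**Figure D3:**
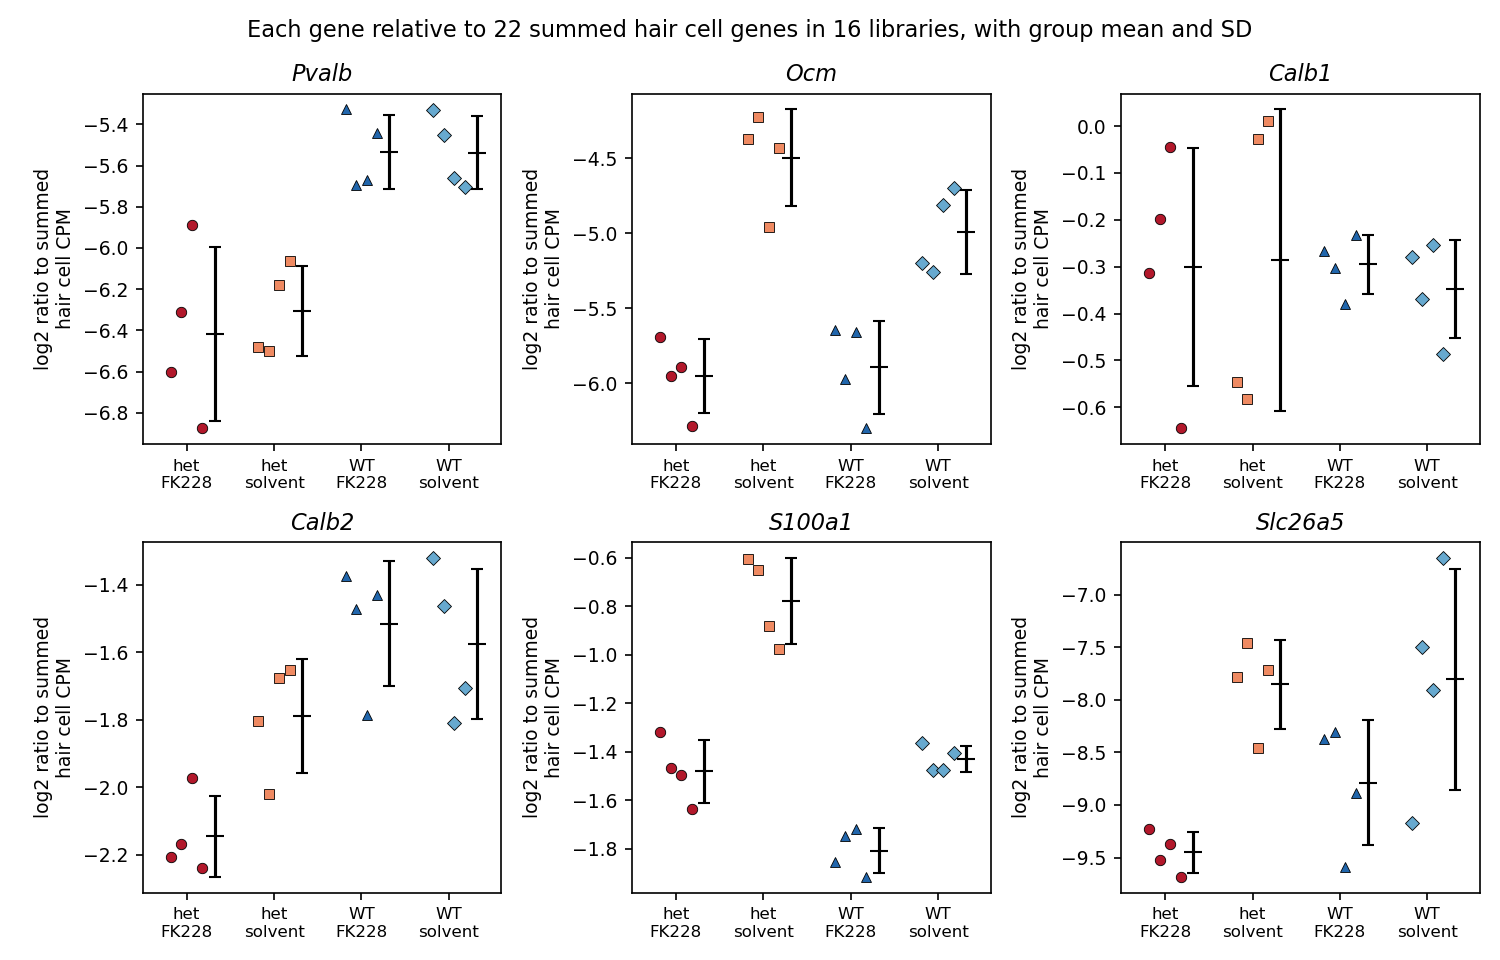
Log2 ratio of each gene's CPM to the summed CPM of 22 hair cell genes (vertical axis) in the 16 libraries (points) by group, with mean and SD (n = 4). Pvalb stayed apart between the genotypes, by -0.77 in solvent and -0.89 with FK228, while the group means of Calb1 lay within 0.06 of each other in each comparison.

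Other calcium-binding proteins were tested as a list of 48 sensors and buffers, of which 40 passed the filter. In heterozygous cultures in solvent 1 was called higher and 3 lower. Calml4, a calmodulin-like protein, averaged 234 ± 19.6 CPM over the heterozygous libraries against 175 ± 12.4 CPM over the wild-type ones (log2 fold change 0.42 ± 0.10; edgeR, adjusted p = 0.0308). Cabp2, a calcium sensor of the inner hair cell synapse, averaged 0.458 ± 0.153 CPM over the heterozygous libraries against 2.84 ± 1.15 CPM over the wild-type ones (-2.62 ± 0.40; edgeR, adjusted p = 0.00103). It is also on the general hair cell list. Tesc (2.54 ± 0.582 against 5.25 ± 0.662 CPM) and Ncs1, a neuronal calcium sensor (484 ± 67.7 against 698 ± 89.4 CPM), were lower as well (SD, n = 4 each). With FK228, 1 was called higher in heterozygous cultures, Calr, a calcium-binding chaperone of the endoplasmic reticulum (405 ± 30.1 against 327 ± 17.5 CPM), and 2 lower, Cabp2 (0.253 ± 0.0885 against 1.50 ± 0.544 CPM) and Ncs1 (285 ± 56.3 against 409 ± 26.9 CPM). The list's median log2 fold change was -0.06 in solvent and -0.05 with FK228.

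With FK228, 14 of these 40 genes rose and 13 fell in heterozygous cultures, and 14 rose and 14 fell in wild type. Micu2, a mitochondrial calcium sensor, was at 36.1 ± 2.29 CPM with FK228 and 57.0 ± 2.61 CPM with solvent in wild type (-0.66 ± 0.09; edgeR, adjusted p = 6.8e-06). In heterozygous cultures Micu2 averaged 35.6 CPM with FK228 and 57.7 CPM with solvent. Tesc rose to 17.1 ± 2.42 CPM against 2.54 ± 0.582 CPM in heterozygous cultures (2.74 ± 0.18; edgeR, adjusted p = 1.57e-09) and to 19.8 ± 3.0 against 5.25 ± 0.662 CPM in wild type. Calml4 fell to 98.6 ± 11.4 CPM against 234 ± 19.6 CPM in heterozygous cultures (-1.25 ± 0.10; edgeR, adjusted p = 1.74e-08) and to 82.9 ± 11.2 against 175 ± 12.4 CPM in wild type. Chp1 rose by log2 values of 0.95 ± 0.08 in heterozygous cultures and 0.79 ± 0.08 in wild type. Cetn3, a centrin, fell, with -0.89 ± 0.07 in heterozygous cultures and -0.78 ± 0.07 in wild type, and Sdf4 fell in heterozygous cultures (-0.49 ± 0.06). In wild type Sdf4 averaged 254 CPM with FK228 and 334 CPM with solvent. The list's median was -0.01 in heterozygous cultures and 0.00 in wild type. Heterozygous cultures with FK228 had 13 of the 40 genes called higher and 12 lower than wild type with solvent, among them Ncs1 at 285 ± 56.3 CPM against 698 ± 89.4 CPM (-1.29 ± 0.13; edgeR, adjusted p = 2.41e-07).

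Of 16 other S100 genes, 8 passed the filter. With FK228, 3 fell in heterozygous cultures and 4 in wild type, and none rose by edgeR or at its unadjusted p under 0.05, against 1 called higher by DESeq2 in heterozygous cultures. S100a16 was at 19.6 ± 2.17 CPM with FK228 and 38.3 ± 1.39 CPM with solvent in heterozygous cultures (log2 fold change -0.97 ± 0.13; edgeR, adjusted p = 5.76e-06), and at 18.7 ± 3.55 and 47.8 ± 6.60 CPM in wild type. S100b, a marker of Schwann cells and glia, was at 37.5 ± 2.92 CPM with FK228 and 71.2 ± 8.20 CPM with solvent in heterozygous cultures (-0.92 ± 0.11; edgeR, adjusted p = 1.17e-06), and at 40.7 ± 5.35 and 74.7 ± 7.60 CPM in wild type. S100a10 fell in wild type (-0.34 ± 0.10; edgeR, adjusted p = 0.00648). Between genotypes none of the 8 passed with edgeR, while 2 had an unadjusted p under 0.05 in solvent and 2 with FK228, and DESeq2 called 1 higher in each. The median log2 fold change with FK228 was -0.13 in heterozygous cultures and -0.37 in wild type.

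Of 10 other SLC26 anion transporters, 9 passed the filter. With FK228, 3 rose and 2 fell in each genotype. Slc26a10 was at 6.91 ± 1.34 CPM with FK228 and 1.20 ± 0.137 CPM with solvent in heterozygous cultures (log2 fold change 2.52 ± 0.30; edgeR, adjusted p = 1.65e-06), and at 6.12 ± 1.81 and 1.46 ± 0.653 CPM in wild type. Slc26a2, a sulfate transporter, and Slc26a6 rose with smaller values, 0.59 ± 0.13 and 0.63 ± 0.16 in heterozygous cultures. Slc26a7 fell to 3.22 ± 1.01 CPM against 7.86 ± 1.16 CPM in heterozygous cultures (-1.28 ± 0.24; edgeR, adjusted p = 0.000193) and to 2.61 ± 0.445 against 8.24 ± 2.00 CPM in wild type. Slc26a1 fell as well, by log2 values of -1.98 ± 0.42 in heterozygous cultures and -1.67 ± 0.43 in wild type. Slc26a4, the pendrin gene, was at 11.8 ± 3.08 CPM in heterozygous cultures with FK228 and 22.7 ± 4.78 CPM in wild type with solvent (-0.94 ± 0.28; edgeR, adjusted p = 0.0103). Between genotypes none of the 9 passed with edgeR, DESeq2 or limma voom, and 1 had an unadjusted edgeR p under 0.05 in solvent and 1 with FK228.

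Across the 16 libraries the members fell into different patterns, described here by Pearson correlations of log2 CPM, which reflect the shared group structure and library composition. Pvalb and Calb2 varied together (r = 0.94), and Calb1 went with both (r = 0.76 with Pvalb and 0.74 with Calb2). Ocm went with S100a1 (r = 0.75) and Slc26a5 (r = 0.73) and not with Pvalb (r = 0.00). Among all genes tested, those most like Pvalb were Nrsn1 (r = 0.96), Gdap1 (0.94), Calb2 (0.94), Nefl (0.93), the light neurofilament, and Stmn3 (0.92). Those most like Calb2 were Mmd2 (0.95), Pvalb (0.94), Pou3f2 (0.92), Tceanc2 (0.92) and Spock3 (0.92). Calb1 was most like Cib2 (0.91), a calcium-binding protein of the hair cell transduction complex, then Alox15 (0.88), Slc9a9 (0.86), Acbd7 (0.86) and Ninj1 (0.85). Ocm was most like Trabd2b (0.97), Bmp5 (0.95), Pcdh18 (0.95), Col3a1 (0.95), a fibrillar collagen of mesenchyme, and Zmiz1 (0.95). S100a1 was most like Ttc30b (0.93), Gng5 (0.93), Cnmd (0.93), Pskh1 (0.92) and Scamp2 (0.92). Slc26a5 was most like Fmr1 (0.87), Myd88 (0.85), Trim8 (0.85), Yap1 (0.84) and Cdhr3 (0.84).

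Ratios of members within a library, chosen after the values were seen and given without a test, show these patterns directly. Calb2 over Calb1, per kb, was 0.709 to 0.921 in heterozygous cultures with FK228, 0.878 to 1.16 in heterozygous cultures with solvent, 1.05 to 1.29 in wild type with FK228 and 0.947 to 1.35 in wild type with solvent. The heterozygous FK228 libraries all lay below both wild-type groups. Pvalb over Ocm, per kb, was 0.374 to 0.704 in heterozygous cultures with FK228, 0.146 to 0.302 in heterozygous cultures with solvent, 0.697 to 1.28 in wild type with FK228 and 0.350 to 0.643 in wild type with solvent. Every heterozygous solvent library lay below every library of the other groups.

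The libraries with few reads outside genes were high in several members. Calb1 had 580.2 CPM in heterozygous solvent library 4 and 495 CPM in library 5, against 295 and 269 CPM in heterozygous solvent libraries 1 and 2. Calb2, Pvalb and the hair cell sum followed the same split within the heterozygous solvent group. Wild-type solvent library 1 was highest of its group for Calb1, Calb2, Pvalb and S100a1, with 579, 282, 17.4 and 273 CPM. With the share of reads outside genes as a term, chosen after seeing the data, Pvalb and Ocm were called in the same comparisons as without it. Under that term Calb2 was called lower in heterozygous cultures in solvent (edgeR, adjusted p = 0.00550), and Calb1 was called higher with FK228, by 0.47 in heterozygous cultures (edgeR, adjusted p = 0.00184) and 0.45 in wild type (adjusted p = 0.00259). Calb2 was then called higher with FK228 in wild type by 0.42 (edgeR, adjusted p = 0.00578), and S100a1 was not called there (adjusted p = 0.0617).

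**Figure D4:**
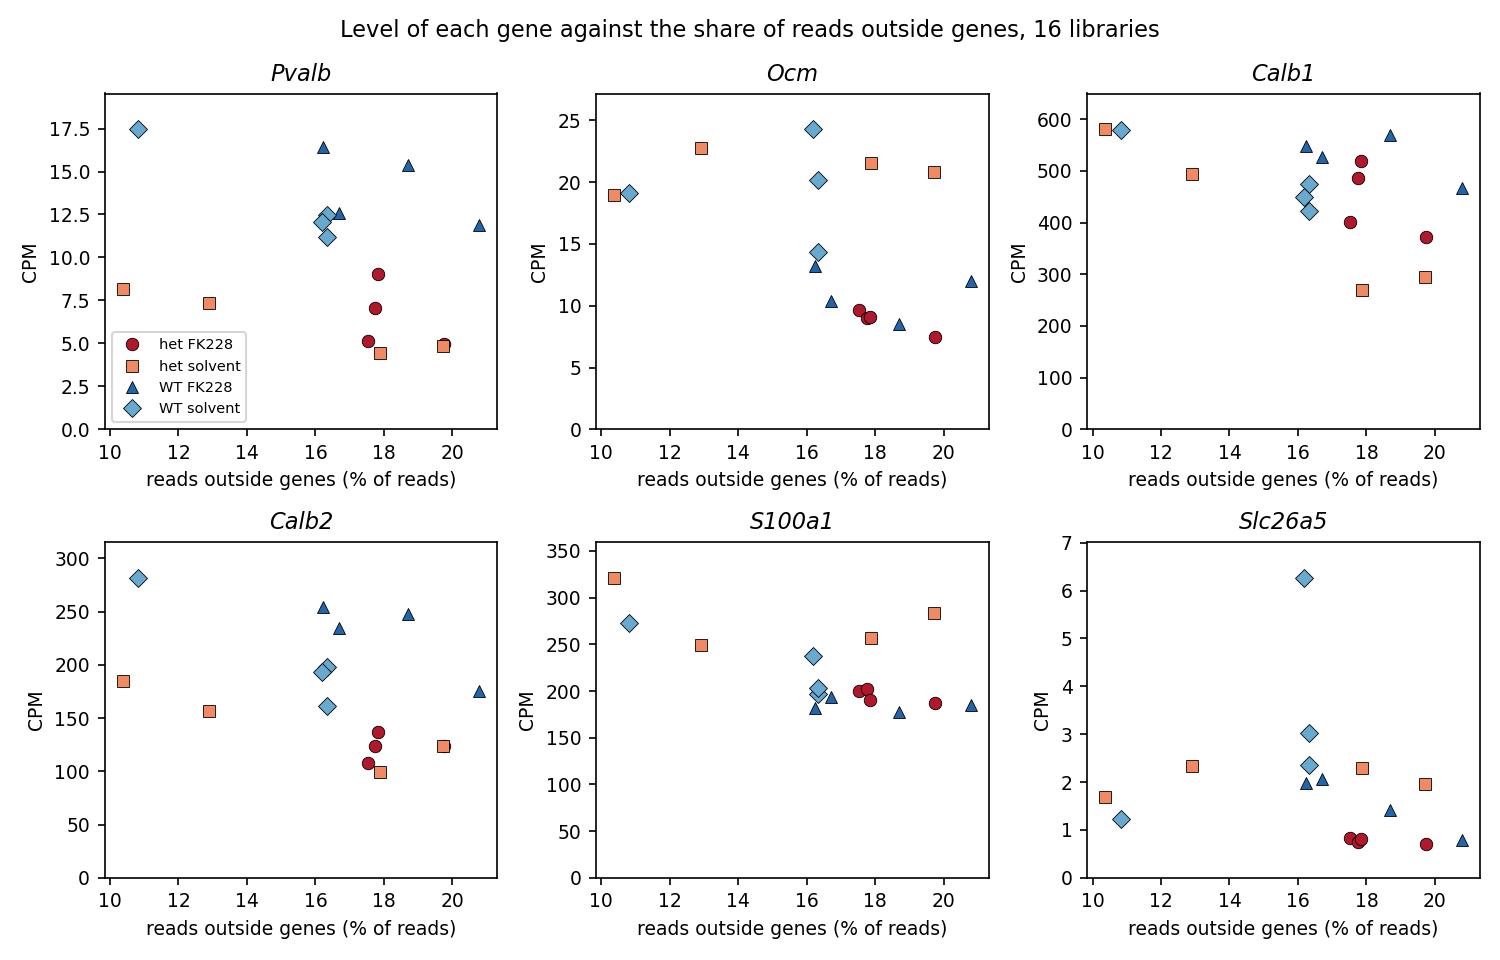
Level of each gene in CPM (vertical axis, starting at 0) against the share of reads outside genes in percent (horizontal axis) in the 16 libraries, with groups by colour and marker. Heterozygous solvent libraries 4 and 5 and wild-type solvent library 1, at 10.4% to 12.9%, lay at the high end of Calb1 for their groups, while Ocm showed no such split.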

How the data were processed

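RNA-seq was deposited as gene counts for 16 pooled cultures. Per the submitters' processing notes, reads were counted with STAR 2.5.2a on GRCm38.p4, so each file holds raw read counts per gene as deposited, and the unstranded column was used because 49.8% to 49.9% of stranded reads were counted under the first strand setting. A second table, made by the authors with DESeq2 (version not given in the sources used here), holds the signal of each gene as counts divided by a size factor per library. Multiplying back by factors of 0.801 to 1.41 gave the deposited counts for 100% of the 21220 genes within 0.001 reads, so the counts were tested and the table served for gene names.

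Genes with enough reads (filterByExpr, minimum count 10, minimum total 15) were fitted with edgeR 4.0.16 in R 4.3.3, by the quasi-likelihood test with TMM factors, all 16 libraries and 1 mean per group. P-values were adjusted by Benjamini-Hochberg over all 17125 genes, with a threshold of 0.05. SE is the log2 fold change divided by the square root of F. Ratios to summed hair cell CPM were compared by exact permutation tests. DESeq2 1.42.0, limma 3.58.1 (voom), other scalings and filters, added terms and leaving out each library were alternatives, and the test was checked on simulated data. Positions and exon lengths are from GENCODE M21, where 99.3% of gene IDs were found. The members and gene lists were chosen with earlier results of these data known. Besides the members, the genes named are the up to 3 that rose and 3 that fell with the smallest adjusted p, without overlap of groups, in 3 related lists, and the 5 genes most correlated with each member. A gene named by this rule is not reported here. Counts carry sampling error that is large for Slc26a5, where 1 read was 0.0787 CPM in the shallowest library. No pair of libraries within a group agreed within sampling noise, and each was counted as 1 sample.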

Additional observations from a re-analysis of the deposited data

How the results depend on the processing

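Over all alternatives, 960 values of the members kept their side of the threshold, 22 gained a call, 11 lost it and 3 turned direction with a call. Among the 960, 39 values turned direction without a call under either setting. Fits with DESeq2, RLE size factors, limma voom, both strand columns summed or the Y-linked level as a term changed no member's call. Spike-in scaling, which moved the median of all genes lower, turned 3 values that were not called with TMM factors and called them lower. They were S100a1 between genotypes with FK228 (-0.65), and Pvalb (-0.62) and Calb1 (-0.57) with FK228 in heterozygous cultures. Spike-in scaling gave 2 members called between genotypes in solvent, 6 with FK228, 6 for FK228 in heterozygous cultures and 3 for the interaction, against 1, 2, 3 and 0 with TMM factors. Over all genes it called 296, 12857, 11524 and 4069 in that order, against 347, 366, 8297 and 4. DESeq2 called 526 genes between genotypes in solvent, 636 with FK228 and 30 for the interaction, against 347, 366 and 4. Without a filter 2 members were called between genotypes in solvent and 10 genes for the interaction. A filter of at least 5 CPM in 4 libraries, limma voom and, chosen after seeing the data, leaving out the 2 libraries lowest in reads outside genes each gave 2 genes for the interaction. The share of reads outside genes as a term, also chosen after seeing the data, gave 2 members in solvent, 592 genes between genotypes with FK228 and 8 for the interaction. Leaving out each library in turn gave 1 to 2 members between genotypes in solvent (2 without library 4 of the heterozygous solvent group, or without wild-type solvent library 1), 188 to 421 genes with FK228 (188 without wild-type FK228 library 7) and 2 to 6 for the interaction. The cause of these shifts was not tested. S100a1 between heterozygous with FK228 and wild type with solvent passed without a filter (edgeR, adjusted p = 0.0492) and with at least 5 CPM in 4 libraries (adjusted p = 0.0463). No ratio to hair cell genes passed the threshold under any denominator, so they say nothing about stability.

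Replicate numbers did not pair the libraries: the 17 pairs with the same number had correlations of -0.22 to 0.16 between their deviations from group means, and 2 were above 0.1. With the replicate number as a block, 0 members were called between genotypes in solvent and with FK228, with adjusted p-values for Pvalb of 0.0528 and 0.167, and for Calb2 with FK228 of 0.171 (edgeR). That fit called 211 genes in solvent, 107 with FK228 and 0 for the interaction, where 797 had an unadjusted edgeR p under 0.05. Under the block Slc26a5 was not called for FK228 in wild type (edgeR, adjusted p = 0.167), and the block changed no other member's call.

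Depth limits Slc26a5 above all, with 9 to 109 reads per library, and a filter of at least 5 CPM removed it.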
